A study of Homo sapiens with 2 samples.

Results

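Tight junctions seal the space between neighbouring epithelial cells. Claudins are small membrane proteins that build the strands of these junctions: some, such as claudin-4, tighten the seal, whereas others, such as claudin-2, form pores for small cations and water. Occludin lies in the same strands, and the scaffold ZO-1 (gene TJP1) anchors them to the actin cytoskeleton. In the colon, this belt separates the lumen from the tissue beneath.

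The 9 genes of this junction listed next were examined in the established colorectal cancer line SW48, of human origin: CLDN1, CLDN2, CLDN3, CLDN4, CLDN7, CLDN12, OCLN, TJP1 and F11R. They were chosen by gene symbol, with the levels and the difference between the arrays already known, so every value of theirs is a description and none is a test. Of the 9 genes, 8 were found among the 17687 named genes of the arrays, with 1 probe set each, and F11R, which encodes the junctional adhesion molecule JAM-A, was not analysed here. SW48 cells were transfected with a small interfering RNA (siRNA) against the zinc finger transcription factor YY1 (siYY1) or with a negative control siRNA (siControl), at a final 5 nmol/L, and total RNA was taken at day 3. A single whole-transcript GeneChip was hybridised for siYY1 and a single one for siControl, and no replicate error or p-value could be obtained. The siRNA against YY1 was a single commercial duplex, and YY1 abundance was not analysed here, which leaves the extent of the knockdown unchecked. Levels are the authors' deposited values, read as log2, and each difference is siYY1 minus siControl on that scale. Folds hold only if the log base is indeed 2.

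A gene was kept for counting when its mean over both arrays reached 7.54, the median over named genes, and 8844 genes passed. A difference of at least 1.5-fold (0.585 on the log2 scale) stood in for a test. In all, 3.78% of the kept genes were at least 1.5-fold lower on the siYY1 array and 3.04% at least 1.5-fold higher. The middle 95% of their differences ran from -0.67 to 0.62, with a median size of 0.18. Of 11 measured markers of colon epithelium, 7 were kept (EPCAM, CDH1, CDX2, CDH17, KRT8, KRT18 and KRT19), and CDX1, VIL1, GPA33 and LGALS4 were under the filter value on both arrays. None of 5 fibroblast and 6 endothelial markers reached it (highest value 6.09 in siYY1 and 6.24 in siControl), and of 5 leukocyte markers only CD79A did (7.77 in siYY1, 7.72 in siControl).

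CLDN4 was the member that stood apart. Its product, claudin-4, is a sealing claudin and a receptor for the enterotoxin of Clostridium perfringens. The CLDN4 level was 10.86 in siYY1, against 12.36 in siControl, a difference of -1.50 or 2.82-fold lower. Both values lay well over 7.54, the filter on dim genes. This was the lowest difference but 5 among the 8844 kept genes, at rank 6 from the bottom. Among the 1523 kept genes whose mean level lay within 0.5 of that of CLDN4, the middle 95% of differences ran from -0.60 to 0.57, and no other gene was as low. With 1 array per condition, how much of such a difference repeat cultures would show is unknown. In RNA from a whole culture, fewer cells with CLDN4 RNA and less of it per cell cannot be told apart.

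**Figure D1:**
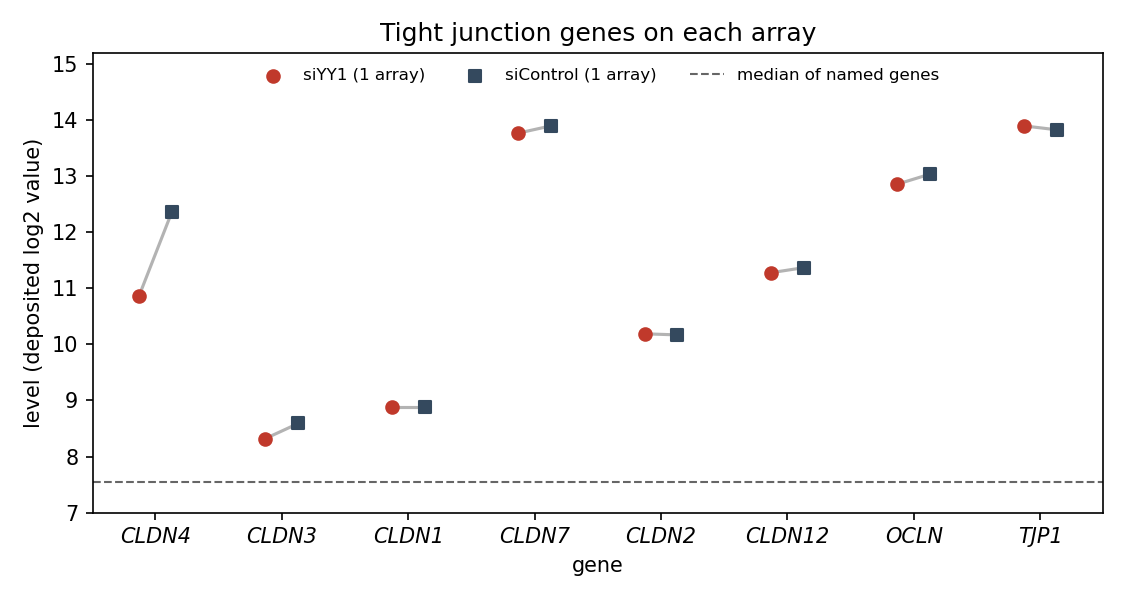
Levels of the 8 tight junction genes (deposited log2 values, vertical axis) on the siYY1 array (circles) and the siControl array (squares), with 1 array each and no error bars; the dashed line is the filter value of 7.54. CLDN4 had 10.86 in siYY1 and 12.36 in siControl, while for each other gene the points lie within 0.3 of each other.

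The other sealing claudins differed little. CLDN3, next to CLDN4 on the chromosome and also an enterotoxin receptor, had 8.32 in siYY1 and 8.59 in siControl, a difference of -0.28 or 1.21-fold lower. CLDN1, a barrier claudin of many epithelia, had 8.88 on both arrays. CLDN7, a claudin that also sits on the lateral membrane and binds EpCAM, had 13.77 in siYY1 and 13.90 in siControl, a difference of -0.13. None of these 3 genes came near 1.5-fold, and CLDN3 was the farthest of all the members after CLDN4, at rank 2887 of 8844 by size of difference.

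CLDN2, which encodes the cation and water pore, had 10.19 in siYY1 and 10.17 in siControl, a difference of 0.02. CLDN12, a claudin tied to calcium passage between cells, had 11.28 in siYY1 and 11.37 in siControl, a difference of -0.09. The pore claudin was thus at nearly the same value on both arrays, and CLDN12 moved by less than the median size over kept genes.

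Occludin was the first membrane protein identified in the strands. OCLN had 12.86 in siYY1 and 13.04 in siControl, a difference of -0.18. The gene annotation lists a transcribed pseudogene, OCLNP1, on the same chromosome, and whether the probes of OCLN separate the copies is not known here. TJP1, the gene of ZO-1, had 13.90 in siYY1 and 13.83 in siControl, a difference of 0.07. A pseudogene of it, TJP1P1, is listed as well. The strand protein and its scaffold therefore lay within 0.3 of their siControl level on the log2 scale, as did 71.2% of the kept genes.

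Of the 8 genes, 1 (CLDN4) was at least 1.5-fold lower and 0 were at least 1.5-fold higher, against 3.78% and 3.04% of kept genes. The median difference of the 8 was -0.11, against 0.0028 over all kept genes. By sign alone, 6 were lower and 2 (CLDN2 and TJP1) higher, although CLDN1, at -0.0012, turned positive with lowess centring. The 7 members other than CLDN4 spanned -0.28 to 0.07, and 6 of the 8 differed by less than the median size over kept genes. The list as a whole is thus described by 1 gene with a large difference and 7 inside the middle range of the arrays.

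**Figure D2:**
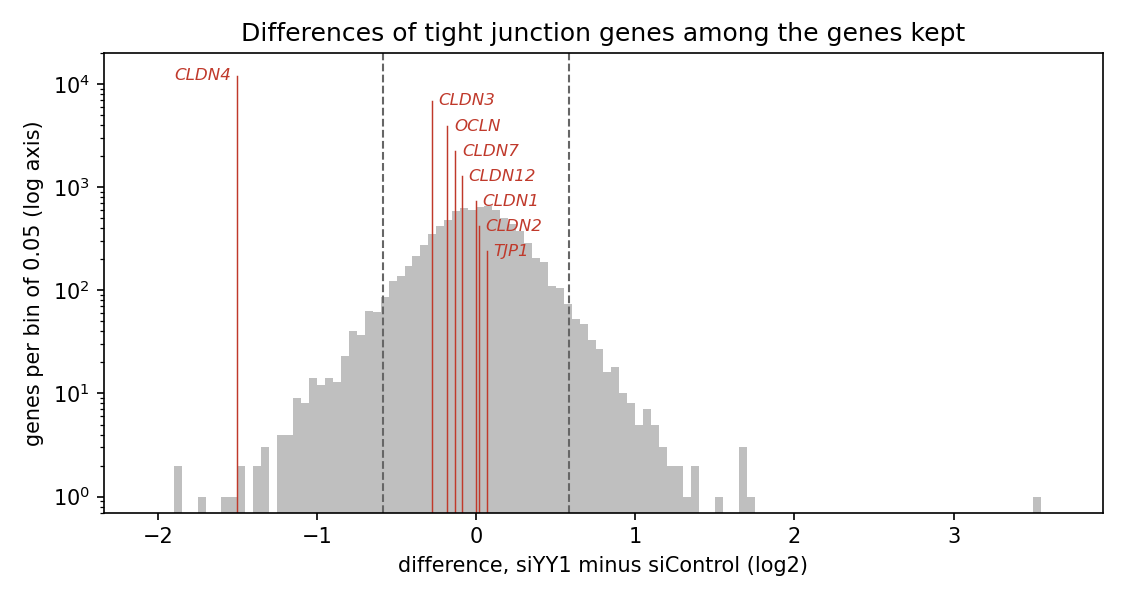
Grey bars count the 8844 kept genes by their difference (siYY1 minus siControl, log2, bins of 0.05, log vertical axis); red lines mark the 8 tight junction genes, with heights chosen for legibility, and dashed lines mark 1.5-fold. CLDN4 lies at -1.50 in the left tail, and the other members lie between -0.28 and 0.07 in the centre.

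CLDN3 and CLDN4 are neighbours on chromosome 7, with no other gene measured here between them, and their promoters are shown because only the CLDN4 value differed by a large amount. Each stretch is the 250 bases before the RefSeq start of the gene (GRCh38.p14), printed 5′ to 3′ on the strand of the gene, at chr7:73830746-73830995 (plus strand) for CLDN4 and chr7:73770271-73770520 (minus strand) for CLDN3. Capitals mark matches to GGGCGG (bound by SP1), to the core GCCAT of YY1 sites and to the TATA box letters TATAA, on either strand.
CLDN4: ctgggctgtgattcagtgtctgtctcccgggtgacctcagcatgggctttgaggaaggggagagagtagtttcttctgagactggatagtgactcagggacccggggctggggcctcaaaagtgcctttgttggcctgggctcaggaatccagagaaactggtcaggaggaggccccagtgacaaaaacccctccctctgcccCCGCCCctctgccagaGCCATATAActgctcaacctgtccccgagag
CLDN3: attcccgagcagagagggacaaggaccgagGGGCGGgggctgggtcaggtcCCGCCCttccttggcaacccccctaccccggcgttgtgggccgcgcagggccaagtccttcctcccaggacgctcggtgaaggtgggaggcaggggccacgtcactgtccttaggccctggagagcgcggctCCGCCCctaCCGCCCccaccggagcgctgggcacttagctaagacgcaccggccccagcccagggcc

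The CLDN4 stretch held 1 match to GGGCGG, from 47 to 42 bases before the start, and the CLDN3 stretch held 4. GGGCGG occurred in 42.6% of the 35116 promoter stretches of the same length in the RefSeq table. It matched in 8 of the 14 stretches of the 8 members, with CLDN1, CLDN7, OCLN and TJP1 among them. In CLDN4, the core GCCAT (31 to 27 bases before the start) shared its last base with TATAA (27 to 23 bases before the start), whereas CLDN3 had neither. GCCAT was found in 29.4% and TATAA in 18.9% of all stretches, and both were searched for only after the sequences had been seen. Matches were not limited to CLDN4. Counted by stretch, as these shares are, GCCAT matched in 3 of the 14 stretches of the 8 members and TATAA in 2. GCCAT also matched in CLDN2 (difference 0.02), on the opposite strand from 146 to 142 bases before 1 start. In CLDN12 (-0.09) it lay 75 to 71 bases before the start. TATAA also matched in CLDN7 (-0.13), on the opposite strand from 212 to 208 bases before 1 start. The longer YY1 motif GCCATNTT, present in 3.86% of all stretches, had no match in the 14 stretches of the 8 members, nor had AACCNGTT, the motif of grainyhead-like factors (1.49%). The E-box CAGGTG, bound by Snail-type repressors (17.5% of all stretches), matched in 4 of the 14 stretches. These belong to CLDN7, OCLN and TJP1, and neither CLDN3 nor CLDN4 had a match. A match describes letters, not binding, and a missing match says nothing of a factor acting elsewhere.

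The genes around the pair were then compared. Taking the 5 nearest measured genes on each side of CLDN3 and of CLDN4 gave 10 neighbours, of which 7 were kept. By sign, 6 of the 7 were lower, with quantile normalization, median centring and lowess centring too, against 49.6% of all kept genes. None of the 7 reached 1.5-fold in either direction, against 3.78% lower and 3.04% higher over all kept genes. The median difference of the 7 was -0.24. The lowest was LIMK1, a kinase of the actin regulator cofilin, with 10.58 in siYY1 and 11.04 in siControl (difference -0.47). BUD23, a methyltransferase of ribosome maturation, followed with 13.39 in siYY1 and 13.83 in siControl (difference -0.44), and the translation factor gene EIF4H, at 0.02, was the highest. The 3 neighbours under the filter, VPS37D, TMEM270 and the elastin gene ELN, lay between 0.11 and 0.38. CLDN4 was thus the 1 gene of this stretch past 1.5-fold. The lower direction of 6 of the 7 kept neighbours was noticed in these values and has no test, and the 3 under the filter were higher.

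**Figure D3:**
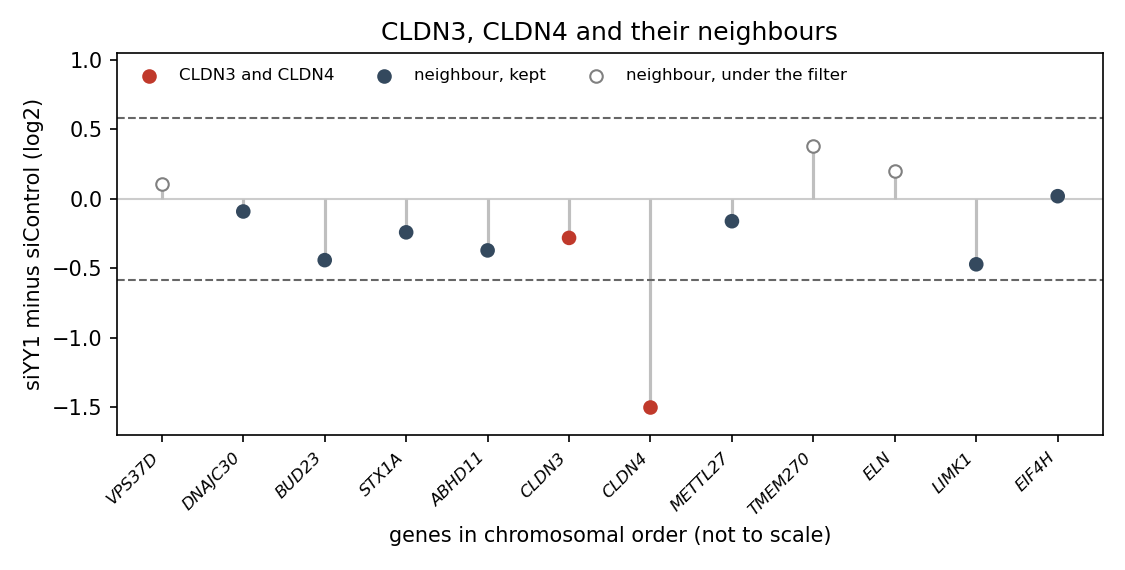
Differences (siYY1 minus siControl, log2, vertical axis) of CLDN3, CLDN4 and their 10 nearest measured neighbours in chromosomal order, not to scale; open circles are genes under the filter and dashed lines mark 1.5-fold. CLDN4 stands at -1.50, and the 7 kept neighbours lie between -0.47 and 0.02.

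By difference, the kept genes next below CLDN4 were the tetraspanin genes TSPAN8 (-1.75) and TSPAN1 (-1.55) and the exchange factor gene NGEF (-1.52), and next above it came the integrin gene ITGB8 (-1.46), the p53-induced gene TRIAP1 (-1.39) and CEACAM5 (-1.38), which encodes carcinoembryonic antigen. The measure of likeness is the difference over 2 arrays and carries no more than that. Of the genes often used as references, ACTB differed by 0.11 and GAPDH by -0.03.

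The remaining 18 claudins were dim. Their levels ran from 2.96 to 6.07 in siYY1 and from 3.35 to 5.65 in siControl, and none was kept. Past 1.5-fold there were 1 lower, CLDN22 (-0.99), and 1 higher, CLDN15 (0.63), both named after their values were seen. Among the 8843 named genes under the filter, 4.03% were at least 1.5-fold lower and 4.92% at least 1.5-fold higher, so such differences were not rare at these levels. No dim claudin was seen to reach the filter value on the siYY1 array. Of 24 claudins measured in all, the 6 kept were the members CLDN1, CLDN2, CLDN3, CLDN4, CLDN7 and CLDN12.

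Other membrane proteins of the junction were mixed in sign. Of 13 genes measured, 5 were kept, with a median of 0.00. Of these 5, 0 were past 1.5-fold, against 3.78% lower and 3.04% higher over all kept genes. MARVELD2, the gene of tricellulin, which seals the corners where 3 cells meet, had 11.11 in siYY1 and 11.61 in siControl (difference -0.49). Its relative MARVELD3 had 10.40 in siYY1 and 9.97 in siControl (difference 0.43). CXADR, a junctional adhesion protein and virus receptor, differed by -0.17 and the polarity gene CRB3 by 0.10. The MARVEL proteins, to which occludin also belongs, thus differed in both directions.

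Among the plaque proteins under the membrane, 8 of 15 measured genes were kept. By sign 6 were lower and 2 higher, and the median was -0.06. Of the kept genes, 1 was at least 1.5-fold lower and 0 were at least 1.5-fold higher, against 3.78% and 3.04% over all kept genes. That gene was USP53, a ubiquitin protease family member that binds ZO scaffolds, with 9.22 in siYY1 and 10.19 in siControl (difference -0.96, 1.95-fold lower). YBX3, a transcription factor held at junctions by ZO-1, differed by -0.25. At the other end, TJAP1 had 10.56 in siYY1 and 10.01 in siControl (difference 0.55), short of 1.5-fold, and the scaffold gene MAGI3 differed by 0.26.

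Polarity proteins place the junction at the apical edge of the lateral membrane. Of 19 such genes and cytoskeletal regulators measured, 15 were kept (6 lower, 9 higher by sign) and the median was 0.03. Past 1.5-fold were 1 lower and 0 higher, against 3.78% and 3.04% over all kept genes. PARD3, a scaffold that recruits atypical protein kinase C to the junction, had 9.39 in siYY1 and 10.47 in siControl, a difference of -1.09 or 2.12-fold lower. Its partner PARD6B differed by 0.32, and the kinase genes of the same complex, PRKCI and PRKCZ, by -0.16 and -0.11. The basolateral polarity gene LLGL2 differed by -0.45, and RHOA, the GTPase that drives actomyosin contraction, by 0.42. PARD3 was thus the 1 kept gene of this list past 1.5-fold, as CLDN4 was among the kept claudins.

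The adherens junction lies just below the tight junction. All 13 genes measured were kept, with a median of 0.02. At least 1.5-fold lower was 1, and 0 were at least 1.5-fold higher, against 3.78% and 3.04% over all kept genes. PLEKHA7, which joins cadherin complexes to microtubules, had 7.49 in siYY1 and 8.17 in siControl (difference -0.68), and its siYY1 value lay under the filter, so the size is uncertain. AFDN, which links nectins to actin, differed by -0.32. The nectin genes NECTIN2 and NECTIN1 differed by 0.44 and 0.30. E-cadherin (CDH1), the core of this junction, had 13.57 in siYY1 and 13.55 in siControl.

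The list of claudin partners and membrane serine proteases held 12 measured genes, all kept, with a median of 0.09. Whether the product of each gene on it binds a claudin was not examined here. The tetraspanin genes TSPAN8 (8.44 in siYY1, 10.19 in siControl) and TSPAN1 (8.75 in siYY1, 10.30 in siControl) were the 2 at least 1.5-fold lower. None was at least 1.5-fold higher. Over all kept genes, the shares were 3.78% lower and 3.04% higher. The other members of this list lay closer to 0. EPCAM, whose protein binds claudin-7, had 16.24 in siYY1 and 16.04 in siControl (difference 0.19). The ephrin gene EFNB1 differed by 0.25 and the protease gene PRSS8 by 0.23.

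Of 23 transcription factors tied to junction genes that were measured, 13 were kept (7 lower, 6 higher by sign) and the median was -0.02. Past 1.5-fold were 1 lower and 0 higher, against 3.78% and 3.04% over all kept genes. OVOL2, a zinc finger factor that holds cells in an epithelial state, had 9.66 in siYY1 and 10.27 in siControl, a difference of -0.61 that came under 1.5-fold with quantile normalization. The grainyhead-like gene GRHL3 had 12.26 in siYY1 and 12.80 in siControl (difference -0.54), while GRHL2, known as an activator of the claudin-4 gene in mouse epithelia, had 10.19 in siYY1 and 10.23 in siControl. TFAP2C differed by 0.46 and the epithelial Ets factor gene EHF by 0.24.

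**Figure D4:**
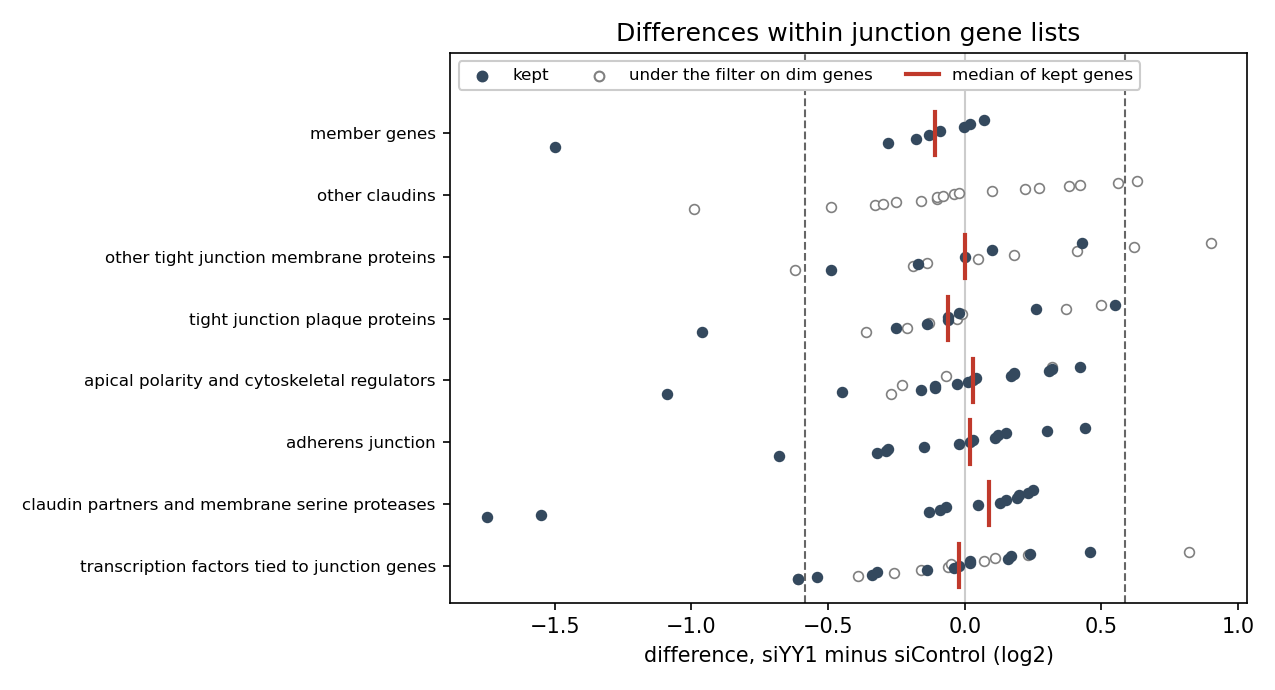
Differences (siYY1 minus siControl, log2, horizontal axis) of every measured gene in 8 junction lists; filled points are kept genes, open points lie under the filter, red bars are the medians of kept genes and dashed lines mark 1.5-fold. The 7 medians lie between -0.11 and 0.09, and single genes, among them CLDN4 at -1.50, TSPAN8 at -1.75 and PARD3 at -1.09, stand to the left.

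Across the 7 lists with kept genes the medians lay between -0.11 and 0.09. Of their 74 kept genes, 7 were at least 1.5-fold lower (CLDN4, USP53, PARD3, PLEKHA7, TSPAN8, TSPAN1 and OVOL2) and 0 at least 1.5-fold higher, beside 3.78% lower and 3.04% higher over all kept genes. Under the filter, the 8 lists held 47 genes, of which 3 (CLDN22, IGSF5 and SNAI2) were at least 1.5-fold lower and 4 at least 1.5-fold higher (JAM2 at 0.90, ZEB1 at 0.82, CLDN15 at 0.63 and CLMP at 0.62), beside 4.03% and 4.92% over all genes under it. Lower calls thus outnumbered higher ones among the kept list genes and not among the dim ones. The lists were chosen with results of these data known, so these counts describe the lists and cannot show a direction of junction genes. OVOL2 came under 1.5-fold with quantile normalization, and the siYY1 value of PLEKHA7 lay under the filter. The lists were not tested against each other or against other genes.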

How the data were processed

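For 2 arrays, the authors deposited 1 value per probe set, used here as log2 values because these ran from 2.32 to 17.97 in siYY1 and from 2.46 to 17.90 in siControl. Per the labels' protocols, sense cDNA was fragmented and biotin-labelled for a GeneChip. The software, the log base and any background correction or normalization are not given in the sources used. After sorting, the arrays were within 0.153 of each other at every rank, so folds rest on values with nearly the same distribution. Whether a normalization step made them alike is not known here. On a log2 scale, raw counts from a 16-bit scanner, the type assumed here, would not exceed 16. Yet 107 probe sets in siYY1 and 112 in siControl lay above 16. If log2, these values are thus not raw counts of such a scanner. The step that produced them is not known here, and the folds depend on it. Groups came from the sample titles.

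Probe sets were named through GEO's platform annotation: 17709 of 21448 had 1 gene symbol and 3739 had none. Probe sets of the same gene were averaged (20 genes). The members, the lists, the rule of size and the rule for named genes were chosen with earlier results of these data known. The text names all members, list genes past 1.5-fold or the 2 kept genes at each end, and the 3 kept genes on each side of CLDN4 in rank; PRKCI, PRKCZ, CDH1, EPCAM, GRHL2, CLDN22, CLDN15, IGSF5, SNAI2, JAM2, ZEB1 and CLMP were named after their values were seen. Promoters are RefSeq's (GRCh38.p14), and all 8 measured members matched. Gene order came from a RefSeq gene table of the same assembly. The rule of size was tried on simulated arrays with planted changes and an assumed noise that was not measured from these arrays. The list, neighbour and alternative steps were not simulated. Alternatives were other fold thresholds and filters, quantile normalization, median or lowess centring (fraction 0.3) and the brightest probe set. Python 3.11.15, numpy 2.4.6, pandas 2.3.3, statsmodels 0.14.6 and matplotlib 3.10.9 were used.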

Additional observations from a re-analysis of the deposited data

How the results depend on the processing

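In the settings that recompute differences (quantile normalization, median centring, lowess centring and the brightest probe set), CLDN4 kept its direction; the other alternatives change only counts and medians. Of 110 recomputed values over 9 settings, 102 moved by less than 0.1 on the log2 scale or, for counts, by at most 1.5 times, and the other 8 were counts over all kept genes. CLDN4 ranged from -1.501 to -1.497 over the scaling and probe set alternatives, and no member moved by more than 0.022. Each measured member has 1 probe set, so the brightest probe set could not change its difference. The arrays were already within 0.153 of each other at every rank, which left the scalings little to move. In each setting tried, 1 member (CLDN4) was past the threshold on the lower side and 0 on the higher side. With a lower threshold (0.322 on the log2 scale), 1192 kept genes were lower and 1082 higher in siYY1. At 2-fold, the counts were 51 lower and 33 higher. Without a filter they were 690 lower and 704 higher, and with the filter at the 75th percentile 117 lower and 87 higher, as fewer or more genes were counted. The medians of the adherens junction list (0.021, and -0.005 with quantile normalization) and of the other tight junction membrane proteins (0.002, and -0.086 with the 75th percentile filter) changed sign near 0, as did the transcription factor list (-0.017, and 0.020 with that filter). No paired analysis was possible because each group has 1 array. No replicate could be left out, and with 2 arrays no value has a measured precision.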
